A study of Mus musculus with 2 samples.

Results

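Xdh encodes xanthine dehydrogenase, also called xanthine oxidoreductase. It is 1 of 32285 genes counted in single nuclei from the subventricular zone (SVZ) of mice, the germinal tissue that lines the lateral ventricle. The gene was chosen by its measured counts in microglia-like nuclei, which were far higher in the library from mice with modeled intestinal perforation (MIP) than in the control library. That difference is therefore described here and supports nothing by itself. Mice were assigned to control or MIP at postnatal day 5, and the SVZ was dissected 48 h later, frozen and used for single-nucleus RNA sequencing, with both samples titled p7. Each group was 1 library. The sources used here do not give the strain, the number of animals pooled, their sex or the details of the perforation model. Nothing can be said about the spread between animals, no test was made, and all intervals below are exact 95% intervals that cover counting error only.

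Xanthine dehydrogenase carries out the last steps of purine breakdown, turning hypoxanthine into xanthine and xanthine into urate. The enzyme holds a molybdenum cofactor, and when it passes electrons to oxygen it gives off superoxide and hydrogen peroxide. In rodents it is best known from liver, gut, capillary endothelium and lactating mammary gland, and cytokines induce its transcription in macrophages and epithelia. Microglia are the resident macrophages of the brain tissue, and border macrophages are their relatives in the meninges and around vessels.

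The control library held 16964 barcodes and 146730970 unique molecular identifiers (UMIs, counts of distinct captured RNA molecules), and the MIP library 12366 barcodes and 100823376 UMIs. After filtering, 14579 control and 10940 MIP nuclei were kept, with median depths of 5647 and 6030.5 UMIs. The libraries had 115 barcodes in common, which is 0.678% of the control and 0.930% of the MIP barcodes. Levels below are CPM, UMIs of a gene scaled to a total of 1000000 UMIs. In kept nuclei Xist was at 1749 CPM in the control library and at 1.41 CPM after MIP, while 4 Y-linked genes together were at 0.314 and 473 CPM. The control library thus held mainly female and the MIP library mainly male nuclei, so that MIP cannot be told apart from sex, nor from the library itself, in any ratio below. Nuclei were clustered over both libraries, and clusters were named by marker genes; each class name means resemblance.

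Xdh (ENSMUSG00000024066) lies on chromosome 17 of the mouse build mm10, from 73883895 to 73950196 on the minus strand, and spans 66302 bp. The GENCODE M21 annotation gives it 14 transcripts, 2 of them protein-coding, with up to 36 exons. One processed pseudogene, CT025731.2, lies inside the gene on the same strand at 73933252 to 73933913 and is not in the deposited gene list. Reads from it and from Xdh itself could not be separated.

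Xdh was a rare transcript in both libraries, and in the MIP library most of it sat in a small group of immune nuclei. Over all barcodes the control library held 186 Xdh UMIs in 182 barcodes, never more than 2 in a barcode. The MIP library held 241 UMIs in 165 barcodes, with up to 5 in a barcode. Among kept nuclei the counts were 151 UMIs in the control library, or 1.31 CPM (1.11 to 1.54), and 194 UMIs in the MIP library, or 2.32 CPM (2.01 to 2.68). Microglia-like nuclei, 3.24% of the kept MIP nuclei, held 50% (42.8 to 57.2) of the MIP Xdh UMIs. Border macrophage-like nuclei, 0.210% of the MIP nuclei, held a further 12.9% (8.52 to 18.4). In the control library the same classes together held 1.99% (0.412 to 5.70) of the Xdh UMIs and 2.20% of the nuclei.

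Microglia-like nuclei of the control library held 1 Xdh UMI among 299 nuclei, a level of 0.998 CPM (0.0253 to 5.56). The 354 microglia-like nuclei of the MIP library held 97 UMIs, a level of 100.3 CPM (81.4 to 122), and 53 of them, or 14.97% (11.4 to 19.1), had at least 1 UMI. The log2 ratio of the levels was 6.65 with an interval of 4.14 to 11.97; its lower end is a 17.6-fold difference, and the point itself rests on a single control UMI. All 14 microglia markers, which were used to name the class, were detected in both libraries, with summed levels of 9835 CPM in MIP and 8591 CPM in control microglia-like nuclei. Summed border macrophage markers were at 654 CPM in MIP and 178 CPM in control nuclei of the class, with Lyve1 at 0 in both, and their part in the Xdh difference was not tested; without the 3 MIP nuclei at the marker level of border macrophages the log2 ratio was 6.59. The class came from 2 clusters. The larger, cluster 21, held 94 Xdh UMIs in 52 of 335 MIP nuclei, and the smaller, cluster 29, held 3 UMIs in 1 of 19 nuclei.

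Border macrophage-like nuclei had the highest Xdh level of any class. In the MIP library 11 of 23 nuclei, or 47.8% (26.8 to 69.4), held 25 Xdh UMIs between them, a level of 214.9 CPM (139 to 317). In the control library 2 UMIs were found, both in 1 of 22 nuclei, a level of 21.5 CPM (2.60 to 77.6). The intervals did not overlap, and the log2 ratio of MIP to control was 3.32 (1.32 to 6.45). Within the MIP library the border macrophage level was above the microglial level by a log2 ratio of 1.10 (0.40 to 1.75). All 7 border macrophage markers, among them Mrc1, Cd163 and Lyve1, were detected in this class in both libraries, with summed levels of 14742 and 12374 CPM. Median depths were similar, at 4128 UMIs in MIP and 4386.5 in control nuclei.

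**Figure D1:**
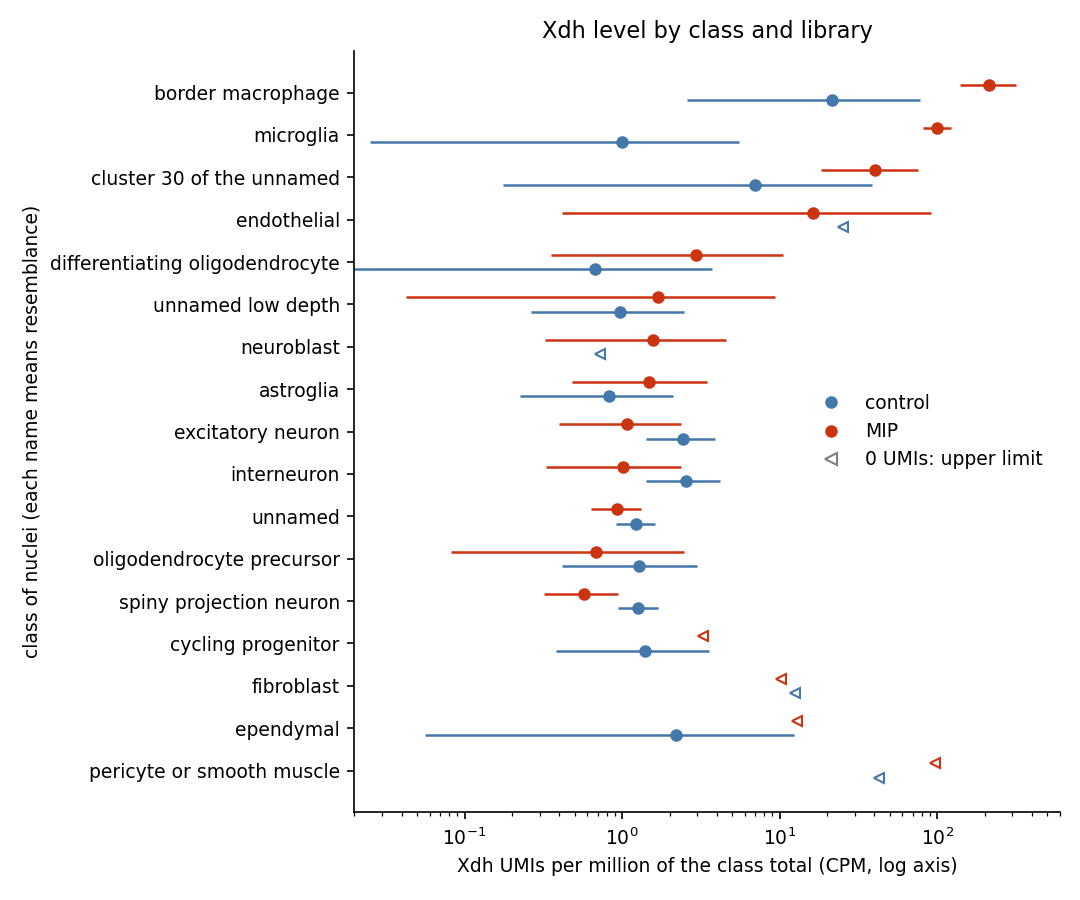
Xdh level in each class of nuclei, in CPM of the class total on a log axis, for the control (blue) and MIP (red) libraries; points are class sums, bars are exact 95% Poisson intervals cut at the left edge, and open triangles mark the upper limit of a class with 0 UMIs. The MIP points of border macrophage-like nuclei at 214.9 CPM and microglia-like nuclei at 100.3 CPM stand to the right of every other class, while most other points lie near 1 CPM in both libraries; cluster 30 is also part of the unnamed class.

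Outside these immune classes Xdh stayed near 1 CPM. The other kept nuclei had 148 UMIs in the control library, 1.30 CPM (1.10 to 1.53), and 72 UMIs in the MIP library, 0.874 CPM (0.684 to 1.10), a log2 ratio of -0.57 (-1.001 to -0.16). When nuclei were thinned to 2000 UMIs, 23 of 10664 control (0.216%) and 21 of 9442 MIP nuclei (0.222%) kept an Xdh UMI. No order is read from these shares. A further 3594 control and 1121 MIP nuclei were too shallow and were left out. Spiny projection neuron-like nuclei, the main striatal neurons, accounted for 48 control and 15 MIP UMIs and had a log2 ratio of -1.15 (-2.09 to -0.29). After thinning, 4 of 3040 control and 5 of 2865 MIP nuclei of this class kept an Xdh UMI, which does not show that difference. In excitatory neuron-like nuclei 17 and 6 UMIs were counted and in interneuron-like nuclei 15 and 5, with log2 ratios of -1.18 and -1.32 whose intervals included 0. The MIP library was shallower in all 3 neuron classes, with median depths of 7917 against 10806.5 UMIs in the spiny projection class.

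The glial and progenitor classes held few Xdh UMIs. Astroglia-like nuclei had 4 control and 5 MIP UMIs, oligodendrocyte precursor-like nuclei 5 and 2, differentiating oligodendrocyte-like nuclei 1 and 2, cycling progenitor-like nuclei 4 and 0, and neuroblast-like nuclei 0 and 3. None of these levels could be told apart between the libraries at this depth, apart from a neuroblast interval whose lower end was a 1.10-fold difference. Taking 3 nuclei as the floor that a count of 0 allows, which is not an exact interval, the 0 of 1233 control neuroblast-like nuclei allows a share of nuclei with a UMI of up to 0.243%, and the 0 of 268 MIP cycling progenitor-like nuclei up to 1.12%. Endothelial-like nuclei, whose capillary type is a known site of the enzyme, numbered only 20 and 13 and held 0 and 1 Xdh UMI. Fibroblast-like nuclei held 0 UMIs in 35 control and 72 MIP nuclei, and by the same floor the MIP count allows up to 4.17% with a UMI.

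A further group with Xdh above the background was an unnamed cluster, number 30, led by Bnc2, Adamtsl3, Dock5, Prdm6 and Eya2. Its 38 MIP nuclei held 9 UMIs in 7 nuclei, a level of 40.1 CPM (18.3 to 76.1), against 1 UMI in 21 control nuclei, 6.94 CPM (0.176 to 38.7), and the intervals overlapped. The 7 positive nuclei had at most 2 microglia markers each, with a summed microglia marker level of 172 CPM beside 174 CPM in the 31 negative nuclei of the cluster. In order of level, MIP border macrophages stood first, MIP microglia second and this cluster next, and the intervals of neighbours in this order did not overlap. Those intervals treat UMIs of 1 nucleus as independent. By share of nuclei with a UMI the cluster, at 18.4% (7.74 to 34.3), and MIP microglia, at 14.97% (11.4 to 19.1), overlapped. These shares come from unlike median depths, 5207.5 UMIs in the cluster and 2654.5 in MIP microglia. With both thinned to equal depth, 2 of 38 MIP nuclei of the cluster, or 5.26% (0.644 to 17.7), kept an Xdh UMI. The MIP microglial share was then higher, at 12.3% (8.65 to 16.7), but the intervals overlapped again. The order by share is therefore not settled. The endothelial level of 16.3 CPM (0.413 to 90.8) could not be placed. The control microglial level could not be told apart from that of the other control nuclei, with a log2 ratio of -0.38 (-5.70 to 2.12), whereas MIP microglia stood above the other MIP nuclei by 6.84 (6.39 to 7.30).

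The difference in positive share was also present at equal depth. The MIP microglia-like nuclei were shallower than their control counterparts, with medians of 2654.5 and 3103 UMIs. Thinned to 2000 UMIs, 34 of 277 MIP nuclei, or 12.3% (8.65 to 16.7), and 1 of 280 control nuclei kept an Xdh UMI, and the log2 ratio of the thinned levels was 5.74; 77 MIP and 19 control nuclei were too shallow and were left out. For comparison, 0.513% of MIP spiny projection neuron-like nuclei had an Xdh UMI at their median depth of 7917 UMIs, and 0.175% after thinning. In the control library the shares of this class were 1.58% and 0.132%. Whether the UMIs in these neuron-like nuclei are stray RNA was not tested. Among the 118 shallowest MIP microglia-like nuclei 11.0% (5.998 to 18.1) were positive, among the middle 118 15.3% (9.30 to 23.0), and among the 118 deepest 18.6% (12.1 to 26.9). Their levels were 92.2, 129 and 84.2 CPM, with intervals that overlapped. The intervals of the shares overlapped too, so that no order with depth is read from either.

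Xdh UMIs were unevenly spread among MIP microglia-like nuclei. No UMI was found in 301 nuclei, 1 UMI in 30, 2 in 10, 3 in 7, 4 in 4 and 5 in 2 nuclei. The 23 nuclei with 2 or more UMIs made up 6.50% (4.16 to 9.59) of the class. The variance of the count was 2.28 times its mean, where counts drawn at a single rate from nuclei of equal depth would give 1. Depths ran from 713 to 5617 UMIs, and the ratio was not corrected for them, so unequal depth is part of it. In the border macrophage-like class 12 MIP nuclei had no UMI, 3 had 1, 3 had 2, 4 had 3 and 1 had 4. The variance was 1.67 times the mean, again without correction for depth.

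**Figure D2:**
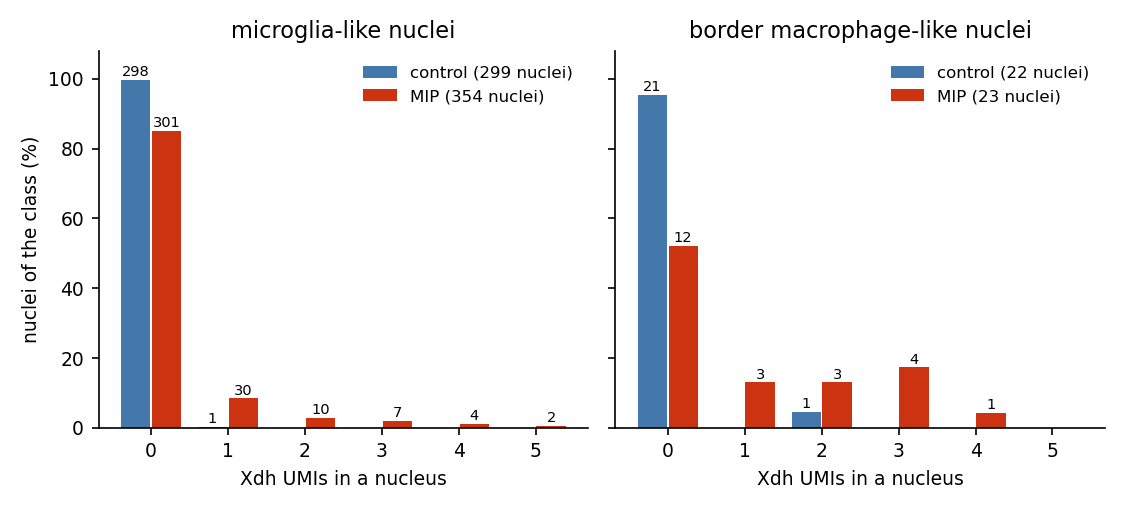
Share of nuclei (percent of the class) by the number of Xdh UMIs in the nucleus, for microglia-like nuclei on the left and border macrophage-like nuclei on the right, control in blue and MIP in red, with the number of nuclei above each bar. In the MIP library 53 of 354 microglia-like and 11 of 23 border macrophage-like nuclei lie to the right of 0, and in the control library 1 nucleus of each class does.

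The genes that lie beside Xdh on chromosome 17 did not share its difference. Toward lower coordinates, Capn13 had no UMI in microglia-like nuclei of either library, the glycosyltransferase gene Galnt14 had 17 MIP and 11 control UMIs, with a log2 ratio of 0.68 (-0.50 to 1.92), and Ehd3, an endosomal trafficking gene, had 3 and 5. Toward higher coordinates, the steroid reductase gene Srd5a2 had none. Memo1, a cell motility gene, had 203 and 158 UMIs, for a log2 ratio of 0.41 (0.11 to 0.72). Dpy30, a subunit of histone methyltransferase complexes, had 26 and 60, a log2 ratio of -1.16 (-1.88 to -0.47).

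No other gene of purine breakdown and salvage showed a difference like that of Xdh in microglia-like nuclei. A gene was counted as higher or lower at a 1.5-fold difference in level, if it had at least 20 UMIs over both libraries; 10610 genes had that many, of which 12.1% were higher and 21.8% lower in the MIP library. Of 12 measured genes of the list, 0 were higher and 1 was lower, and the list's median log2 ratio was -0.26 beside -0.10 over all genes. Upstream of Xdh, the purine nucleoside phosphorylase gene Pnp, whose product releases hypoxanthine, had 48 MIP and 50 control UMIs, for a log2 ratio of -0.01 (-0.61 to 0.59). Gda, the guanine deaminase gene, which supplies xanthine, had 29 and 31 UMIs, a ratio of -0.05 (-0.83 to 0.73). The gene past the limit was Nt5c3, a nucleotidase, at -1.27 (-2.21 to -0.40).

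Salvage genes, whose products return the bases to nucleotides and so compete with Xdh for them, also differed little. Hprt had a log2 ratio of -0.17 (-0.69 to 0.35), Aprt -0.47 (-1.17 to 0.21) and Adk, the adenosine kinase gene, 0.36 (-0.11 to 0.83). Entpd1, which encodes the ectoenzyme CD39 and begins the breakdown of extracellular ATP, was lower by a smaller step, at -0.57 (-0.77 to -0.37), with 331 MIP and 509 control UMIs. The enzymes beyond urate in the mouse were nearly silent, with 1 control UMI of Uox and none of Urah, Urad or Allc. Scaling with the TMM method would add 0.16 to each microglial log2 ratio between the libraries, so that 1925 genes would be higher and 1652 lower in place of 1288 and 2312; the counts for the 4 lists around Xdh were the same with it.

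Genes that make or share the molybdenum cofactor of Xdh differed little too. Of 4 measured, 0 were higher and 0 lower: Gphn, which encodes gephyrin and completes the cofactor, had 393 MIP and 441 control UMIs, for a log2 ratio of -0.12 (-0.32 to 0.08), and Mocs2, which makes the pterin of the cofactor, 38 and 37. Mocos, which encodes the sulfurase that activates Xdh, had 1 UMI in each library. The aldehyde oxidase genes Aox1 to Aox4, the nearest relatives of Xdh, had 3 UMIs in MIP and 2 in control microglia-like nuclei in all. Of 4 measured urate and purine transporters, 0 were higher and 0 lower. Slc2a9, a urate carrier, was at 0.23 (-0.23 to 0.70) and Abcg2, a urate exporter, at 0.12 (-0.33 to 0.56). Over all genes in microglia-like nuclei, 12.1% were higher and 21.8% lower.

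Genes that produce or clear reactive oxygen, the side product of the enzyme, were mixed. Of 18 measured, 5 were higher and 1 lower, beside 12.1% higher and 21.8% lower over all genes. The median was -0.13, which TMM scaling would bring above 0. Among the higher ones were subunits or regulators of the phagocyte NADPH oxidase and Nfe2l2, which encodes the antioxidant regulator NRF2: Rac2 at 1.28 (0.50 to 2.12), Nfe2l2 at 0.68 (0.36 to 1.01), and Ncf4 and Cybb at 0.73 and 0.64 with intervals that included 0. Gclc, the rate-limiting enzyme of glutathione synthesis, was lower at -0.91 (-1.49 to -0.36). Ncf1, another oxidase subunit, was at -0.46 (-0.83 to -0.09), inside the 1.5-fold limit.

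**Figure D3:**
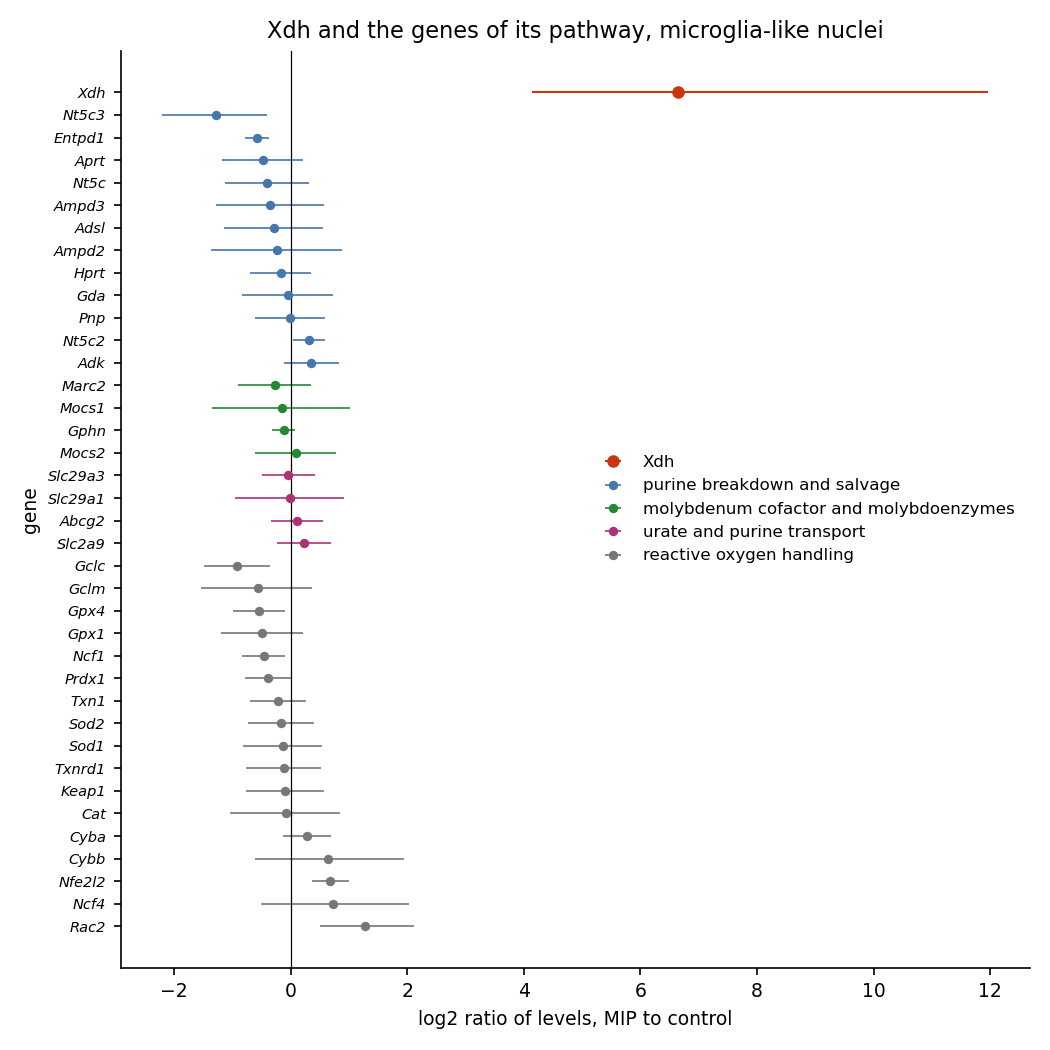
Log2 ratio of the level in MIP to that in control microglia-like nuclei for Xdh (red) and for measured genes of purine breakdown and salvage (blue), the molybdenum cofactor (green), urate and purine transport (purple) and reactive oxygen handling (grey); points are ratios of class sums and bars exact 95% intervals. Xdh stands at 6.65, and the pathway genes lie between -1.27 for Nt5c3 and 1.28 for Rac2.

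Within the MIP library, the 53 Xdh-positive microglia-like nuclei were set beside 106 Xdh-negative ones of similar depth, 2 for each positive nucleus. Median depths were 2955 and 2909 UMIs, and the median number of microglia markers detected was 9 and 10. Xdh itself was left out of the totals, and the choice used no other gene. Of 5114 genes with at least 20 UMIs over both sets, 11.3% were at least 1.5-fold higher and 15.5% at least 1.5-fold lower in the positive nuclei. With 1 library, both sets come from the same preparation, and the intervals treat every UMI as independent, which UMIs of 1 nucleus are not.

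The genes that stood highest in Xdh-positive nuclei included receptors and enzymes of macrophages. The 12 named here had the interval bound farthest above 0 among genes with at least 30 UMIs. Mrc1, which encodes the mannose receptor CD206, had 172 UMIs in positive and 98 in negative nuclei, 1075 against 309 CPM, a log2 ratio of 1.80 (1.43 to 2.17). A single positive nucleus held 40 of the 172 UMIs, and without nuclei at the marker level of border macrophages the ratio was 1.05 (0.63 to 1.47). Mrc1 is itself 1 of those markers, so this filter partly sets its ratio. Arg1, the arginase gene, had 36 and 14 UMIs, 225 against 44.1 CPM, a ratio of 2.35 (1.43 to 3.36). Fcgr2b, the inhibitory Fc receptor for IgG, had 110 and 76 UMIs, a ratio of 1.52 (1.09 to 1.96). All 3 genes were thus higher in the nuclei that carried Xdh, and all 3 were also found in nuclei without it.

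Signalling and growth factor genes were among the 12 as well. Hip1, whose product links clathrin to the cytoskeleton, had the largest ratio, 2.37 (1.66 to 3.13), with 60 and 23 UMIs, in 56.6% of positive and 20.8% of negative nuclei. Morrbid, a long noncoding RNA that controls the lifespan of myeloid cells, was at 1.99 (1.25 to 2.76), and Csk, the kinase that holds Src family kinases inactive, at 1.90 (1.01 to 2.84). Lifr, the receptor subunit for leukaemia inhibitory factor, was at 1.12 (0.76 to 1.48). Igf1, a growth factor, was at 1.14 (0.78 to 1.49), but at 0.35 (-0.01 to 0.72) with 1 negative nucleus per positive; 1 negative nucleus held 39 of its 131 UMIs in the negative set. Ust, a sulfotransferase of dermatan and chondroitin chains, was at 1.49 (1.13 to 1.86), and the uncharacterised transcript Gm13269 at 1.75 (0.92 to 2.63).

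The remaining 2 are better known from excitable cells. Kcnip4, which encodes a potassium channel partner, had 174 and 82 UMIs, for a log2 ratio of 2.07 (1.69 to 2.47), and Cacnb2, a calcium channel subunit, 407 and 324 UMIs, a ratio of 1.32 (1.10 to 1.53). Kcnip4 was at 9232 CPM in MIP excitatory neuron-like nuclei. Summed levels of the excitatory neuron markers were 706 CPM in positive and 510 CPM in negative nuclei, with 5 of 9 at 0 in the positive set, and those of the spiny projection neuron markers 1031 and 876 CPM; the interneuron markers went the other way, at 518 and 737 CPM. Their part in the Kcnip4 and Cacnb2 results was not tested. Leaving out the nucleus with the most UMIs of the gene in each set left Kcnip4 at 2.35 and Cacnb2 at 1.42, and with microglia taken by marker count Kcnip4 was at 0.57 (0.45 to 0.69).

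Border macrophage markers were higher along with Xdh in this comparison. Their summed level was 1312 CPM in Xdh-positive and 498 CPM in matched negative nuclei, and Mrc1 made up most of the difference. F13a1, a transglutaminase gene of border macrophages, was at 213 CPM (147 to 297) in positive and 154 CPM (128 to 183) in all Xdh-negative nuclei, with intervals that overlapped. The defining markers Cd163 and Lyve1 were at 0 in both sets, and Pf4 at 0 in the positive set. Only 2 of 53 positive and 0 of 106 negative nuclei reached the marker level of the lowest border macrophage-like nucleus, 61.7 UMIs per 10000. Without such nuclei 14.5% of the class were Xdh-positive. Summed microglia markers were at 9301 and 9740 CPM. Of the monocyte and neutrophil markers, 8 of 10 were at 0 in the positive and 9 of 10 in the negative set, S100a8, S100a9, Ly6c2 and Ngp among them.

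The same nuclei can be described by the share with Xdh at each count of these genes, without depth matching. Arg1, Hip1 and Mrc1 were picked for their difference between these nuclei, so that the shares restate it and add no support. Among MIP microglia-like nuclei without an Arg1 UMI 38 of 324, or 11.7% (8.43 to 15.7), were Xdh-positive, and among the 30 with Arg1 15 were, or 50% (31.3 to 68.7). By Hip1 the shares were 8.65% (5.56 to 12.7) of 266 nuclei without and 34.1% (24.3 to 45.0) of 88 with a UMI. By Mrc1 they were 11.9% (7.80 to 17.2) at 0 UMIs, 15.7% (9.89 to 23.3) at 1 to 4 and 34.6% (17.2 to 55.7) at 5 or more. Socs3, the STAT3 feedback gene that was also far higher in MIP microglia, gave 13.8% (9.91 to 18.5) without and 18.6% (11.0 to 28.4) with a UMI, with intervals that overlapped. Nuclei with a UMI of any of these genes were also deeper, at a median of 3044.5 against 2588.5 UMIs for Arg1.

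Most of these genes were higher in Xdh-negative MIP microglia than in control microglia too. Arg1 was at 11.0 CPM in control, 37.2 CPM in Xdh-negative and 225 CPM in Xdh-positive MIP nuclei. Fcgr2b followed the same order at 81.9, 286 and 688 CPM, Ust at 123, 346 and 975 CPM, Lifr at 77.9, 472 and 850 CPM and Mrc1 at 171, 347 and 1075 CPM. Hip1, at 47.9, 84.3 and 375 CPM, and Igf1, at 192, 294 and 906 CPM, did so as well, and for each of these 7 genes the 3 intervals were separate. All were picked for their difference between Xdh-positive and Xdh-negative nuclei, so the step between those sets restates the choice and adds no support. Cacnb2, at 1170, 902 and 2544 CPM, and Gm13269, at 154, 68.2 and 213 CPM, were lower in Xdh-negative MIP nuclei than in control. For Kcnip4, at 279, 301 and 1088 CPM, Morrbid, at 69.9, 73.1 and 300.03 CPM, and Csk, at 54.9, 68.2 and 200.02 CPM, control and Xdh-negative MIP nuclei could not be told apart.

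**Figure D4:**
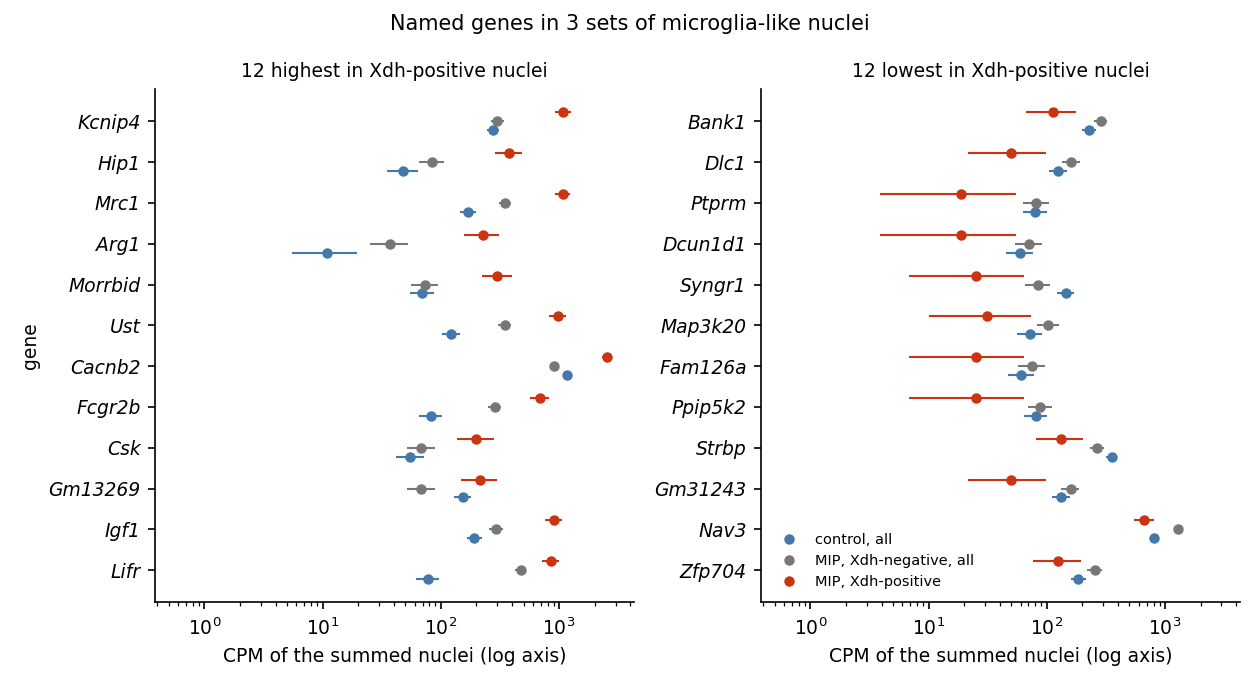
Level of the 12 genes highest (left) and the 12 lowest (right) in Xdh-positive against depth-matched Xdh-negative MIP microglia-like nuclei, as CPM of the summed nuclei on a log axis, in all 299 control nuclei (blue), all 301 Xdh-negative MIP nuclei (grey) and the 53 Xdh-positive MIP nuclei (red); bars are exact 95% Poisson intervals. On the left Arg1 steps from 11.0 through 37.2 to 225 CPM, while Kcnip4 is apart only in the red set; on the right the blue and grey points lie close together for most genes.

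The genes lowest in Xdh-positive nuclei rested on smaller counts. Bank1, an adaptor gene known from B cells, had 18 UMIs in positive and 110 in negative nuclei, a log2 ratio of -1.62 (-2.43 to -0.90). Dlc1, a gene that restrains small GTPases, was at -1.94 (-3.22 to -0.87), Strbp at -1.23 (-1.99 to -0.54), Zfp704 at -1.20 (-1.97 to -0.49), Gm31243 at -1.63 (-2.92 to -0.54) and Nav3, a microtubule-associated gene, at -0.82 (-1.15 to -0.51). The other 6, Ptprm, Dcun1d1, Syngr1, Map3k20, Fam126a and Ppip5k2, had 3 to 5 UMIs in the positive set. With microglia taken by marker count Ptprm was at 0.45 with an interval that included 0, Map3k20 at -0.22 and Ppip5k2 at -0.37.

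Described by list, interferon and STAT3 pathway genes had median log2 ratios above 0 in Xdh-positive nuclei, while those of Socs3 and Stat3 themselves were near 0. Of 11 measured interferon-response genes 3 were higher and 0 lower, at a list median of 0.38 beside -0.01 over all genes; they were Ifi204, a DNA sensor gene, at 1.22 (0.46 to 1.98), Parp14, a STAT6 partner, at 0.89 (0.07 to 1.69), and Ifih1, an RNA sensor gene, at 0.63 with an interval that included 0. Of 16 STAT3 and interleukin 6 family genes 4 were higher and 1 lower, for a median of 0.41. Over all 5114 genes measured, 11.3% were higher and 15.5% lower in positive nuclei. Pim1, a survival kinase gene, was at 1.14 (0.45 to 1.85) and Lifr at 1.12. Socs3, at -0.05 (-0.90 to 0.76), and Stat3, at -0.13 (-0.63 to 0.35), had intervals that included 0.

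Microglial state genes differed little between the sets as lists, beside 11.3% higher and 15.5% lower over all genes measured. Among 14 homeostatic genes 1 was higher and 3 were lower, for a median of -0.11; the chemokine receptor gene Cx3cr1 was at -0.59 (-0.96 to -0.23) and the ADP receptor gene P2ry12 at -0.48 (-0.81 to -0.17). Among 13 phagocytosis and complement genes 3 were higher and 0 lower, for a median of 0.13, but C1qa, C1qb and C1qc, the complement starter genes, lay between 0.01 and 0.13. Among 13 activated and lysosomal genes 2 were higher and 3 lower, for a median of -0.28, and Apoe, a lipid carrier gene, was at 0.11 (-0.03 to 0.25). The median was 0.21 over 7 NF-kB feedback genes, of which 1, the survival gene Birc3, was higher, and 0.14 over 6 glucocorticoid response genes, of which 2 were higher and 1 lower. It was -0.17 over 9 hypoxia and glycolysis genes, with 2 lower, and 0.30 over 6 circadian clock genes, with 1 higher and 1 lower.

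Most enzymes around Xdh were not higher with it inside the class either. Of 6 measured purine genes 0 were higher and 2 lower, for a median of -0.39; Pnp was at 0.54 (-0.73 to 1.76), Hprt at -0.40 (-1.79 to 0.83) and Entpd1 at -0.75 (-1.32 to -0.22). Ampd3, an AMP deaminase gene picked out after its values were seen, had too few UMIs to be counted, with 9 in positive and 4 in negative nuclei, at 2.16 (0.32 to 4.31). Gphn, the 1 molybdenum cofactor gene with enough UMIs, was at 0.23 (-0.21 to 0.67), and Slc2a9 at 0.54 (-0.32 to 1.38). Among 13 reactive oxygen genes 2 were higher and 3 lower, for a median of -0.05. Over all genes measured, 11.3% were higher and 15.5% lower.

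Cell cycle genes were lower in Xdh-positive nuclei of the filtered class, and their UMIs came from few nuclei. Of 12 measured genes 9 were lower and 0 higher, for a median of -1.10, beside 15.5% lower and 11.3% higher over all genes. Mki67, the marker of dividing cells, had 2 UMIs in positive and 21 in negative nuclei. Cluster 29, the smaller microglia-like cluster, held 1 of 53 positive and 8 of 106 negative nuclei, and Mki67 was found in 1 and 7 nuclei. Without doublet removal the median was -0.040 over 10 genes. With cluster 21 only, the median was 0.25 over 2 measured genes, and with 1 negative nucleus per positive it was 0.51 over 2.

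**Figure D5:**
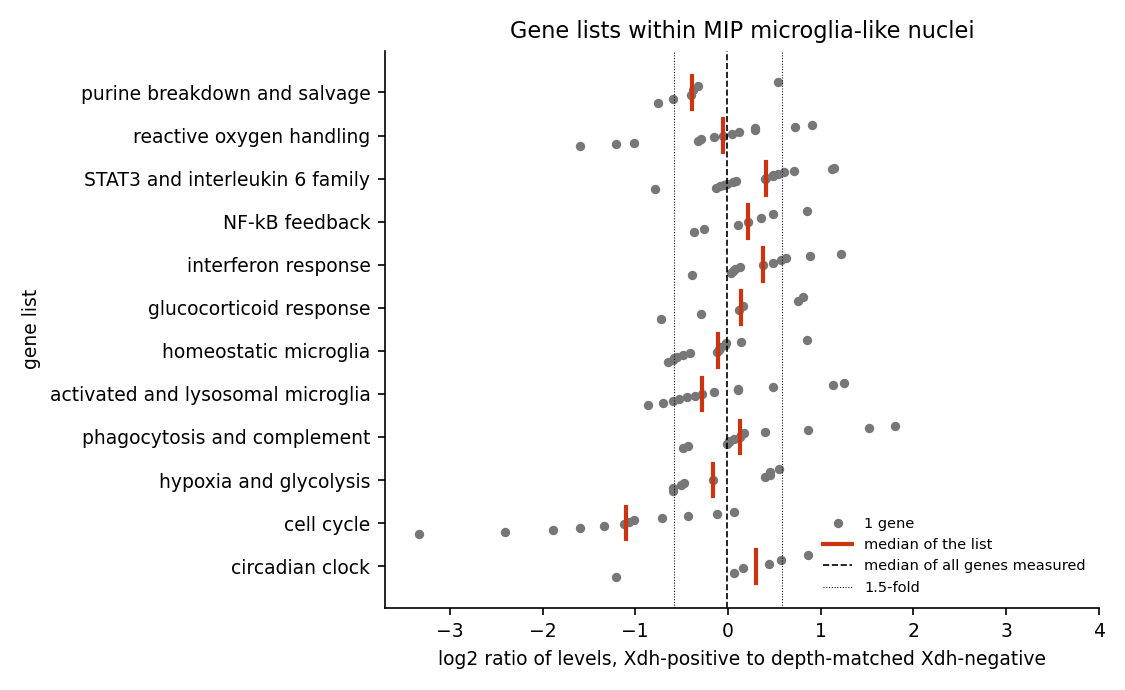
Log2 ratio of the level in Xdh-positive to that in depth-matched Xdh-negative MIP microglia-like nuclei for the measured genes (grey points) of each list with at least 5 of them; red bars are list medians, the dashed line is the median of all genes at -0.01 and dotted lines mark 1.5-fold. Most medians lie between the dotted lines, from -0.39 for purine breakdown and salvage to 0.41 for the STAT3 and interleukin 6 family, and the cell cycle list stands apart at -1.10.

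Border macrophage-like nuclei allowed the same lists to be set beside Xdh in a second class, at low counts. There 2505 genes had at least 20 UMIs over both libraries, 26.4% of them higher and 22% lower in the MIP library by 1.5-fold. Of 10 measured STAT3 and interleukin 6 family genes 8 were higher and 0 lower in the MIP library, for a median of 0.82; Stat3 had 34 MIP and 7 control UMIs, a ratio of 1.96 (0.76 to 3.38), and Pim1 23 and 7 UMIs. Interferon-response genes went the other way, as 9 of 11 were lower and 1 was higher, for a median of -1.37: Oasl2, an antiviral gene, had 2 MIP and 26 control UMIs, a ratio of -4.02 (-7.14 to -2.02). Glucocorticoid response genes had the median 1.23 over 5 measured genes, of which 3 were higher and 0 lower, with Fkbp5, a chaperone gene, at 1.65 (0.96 to 2.39). NF-kB feedback genes had the median 0.77, with 3 of 5 higher and 0 lower, and homeostatic microglia genes -0.67, with 5 of 6 lower and 0 higher. In microglia-like nuclei of the same libraries 13 of 18 STAT3 family genes were higher and 0 lower, for a median of 1.42. Of 15 interferon-response genes 9 were higher and 1 was lower, for a median of 0.66. Over all 10610 genes measured in microglia-like nuclei, 12.1% were higher and 21.8% lower. There 9 of 17 homeostatic genes were lower and 0 higher, for a median of -0.66, and with TMM scaling 6 were lower. Xdh was higher in the MIP library in both classes.

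Across 14 classes in each library, 28 points in all, the genes whose level was most like that of Xdh were Cd14, Csf2rb, Ap1b1, Bcl3 and Mlxip, with Pearson correlations of 0.85, 0.84, 0.83, 0.83 and 0.83 on a log2 scale with a pseudocount of 1 CPM. These points share 2 libraries, each class has its own depth, and 6219 genes were ranked, so the values are descriptive. Cd14 encodes a receptor for bacterial lipopolysaccharide and Csf2rb the receptor subunit shared by interleukin 3 and GM-CSF. Bcl3, an NF-kB cofactor gene, had 72 MIP and 7 control UMIs in microglia-like nuclei and 7 and 1 in border macrophage-like nuclei. Cd14 differed less between the libraries. It was at 40.3 MIP and 24.0 control CPM in microglia-like nuclei, and at 77.4 and 64.4 CPM in border macrophage-like nuclei. Csf2rb was at 173 and 62.9 CPM in the former and at 112 and 107 CPM in the latter. A high correlation here thus need not mean a difference between the libraries as large as that of Xdh. With a pseudocount of 10 CPM, Bcl3 came first at 0.93, followed by Gpr65, Batf, Lilrb4a and Galnt6, and 2 of the first 10 genes, Bcl3 and Nipa2, were the same. Inside MIP microglia the first 10 genes at a pseudocount of 1 CPM had log2 ratios of Xdh-positive to Xdh-negative nuclei from -0.35 for Wwp1 to 0.63 for Cd14, and every interval included 0. Fcgr2b, the ninth gene at a pseudocount of 10 CPM, is among the 12 genes above, at 1.52.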

How the data were processed

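The authors deposited raw UMI counts per gene and barcode, made with Cell Ranger 5.0.1 on mm10 per the submitters' processing notes; whether intronic reads were counted and how barcodes were called is not given in the sources used here. Xdh, the markers and the 14 gene lists were chosen with earlier results of these data known. Nuclei with at least 500 genes and at most 5% mitochondrial UMIs were kept, and the barcodes with the highest Scrublet scores were removed at 0.8% per 1000 barcodes (2271 control, 1174 MIP), since the automatic threshold marked 0 and 817. Mitochondrial, ribosomal, hemoglobin and sex-linked marker genes were left out of comparisons across genes. Counts were log-transformed and clustered over both libraries in scanpy 1.11.5 (3000 variable genes, 40 components, 20 neighbours, Leiden resolution 1), giving 36 clusters. A cluster was named from at least 3 markers among its top 60 genes; 23 were named. UMIs were summed per class and library and compared as log2 ratios with exact conditional intervals; shares have Clopper-Pearson and levels Poisson intervals. Xdh-positive and Xdh-negative nuclei were paired by depth, and the named genes are the 12 highest and 12 lowest by the interval bound nearest 0 among genes with at least 30 UMIs. A gene at 0 in 1 set entered medians at a floor of 3 UMIs per set. Genes singled out from lists were picked after their values were seen. Scripts were tested on simulated counts. Alternatives included scaling with edgeR 4.0.16 (TMM) and DESeq2 1.42.0 (median of ratios), which were used for scaling only. Single values of a few list members are not reported here, though the list counts and medians hold them.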

Additional observations from a re-analysis of the deposited data

Results flagged for a closer look

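Barcodes that were left out as doublets by their score held Xdh as well, which was noticed because the signal lies outside the classes compared and is above that of the control library. Among 119 such MIP barcodes with at least 4 microglia markers, 31 Xdh UMIs were found in 18 barcodes, a level of 15.02 CPM (10.2 to 21.3). Among 158 such control barcodes 4 UMIs were found, 1.504 CPM (0.410 to 3.85). Left-out barcodes with fewer microglia markers were at 1.06 CPM in the MIP and 1.07 CPM in the control library. Their median depths were 10566 UMIs in the MIP and 12735.5 in the control barcodes with at least 4 microglia markers.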

How the results depend on the processing

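Of 29 alternative values for Xdh itself, 24 lay within the 95% interval of the value reported. The microglial log2 ratio of 6.65 ranged from 4.89, with microglia taken by at least 4 markers, to 6.81 with TMM scaling; without doublet removal it was 5.85. The positive share of 14.97% was 6.50% at 2 or more UMIs. The microglial share of MIP Xdh UMIs, 50%, was 42.3% without doublet removal, 64.4% by at least 4 markers and 63.1% after thinning to 2000 UMIs. Outside the immune classes the log2 ratio of -0.57 was -0.60 without the unnamed low-depth clusters and -0.76 without cluster 30, the latter chosen after seeing the data. Of 144 alternative list medians, 139 lay within their interval over members and 132 kept their sign. The activated list ran from -0.43 to 0.18, reactive oxygen from -0.15 to 0.15, glucocorticoid response from -0.066 to 0.26 and circadian clock from -0.077 to 0.52. The purine list was at -0.84 after thinning, over 3 genes. The cell cycle median of -1.10 was -0.040 without doublet removal, and its sign changed to 0.25 with the largest cluster only, 0.51 with 1 negative per positive and 0.36 with Xdh-positive nuclei taken at 2 or more UMIs, each over 2 genes, since fewer nuclei left fewer genes with 20 UMIs. Of 262 alternative values of the 24 named genes, 242 lay within the 95% interval of the value reported, and 261 kept their sign. A further 19 moved outside the interval without a change of sign. The 1 reversed value was Ptprm by at least 4 markers, at 0.45. Igf1 was 0.35 with 1 negative per positive, Nav3 -0.42 after thinning, and Gm13269 0.87 at 2 or more Xdh UMIs. No paired analysis was possible because each group is 1 library. With 1 or 2 control Xdh UMIs in the immune classes, depth bounds the size of both ratios.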

Other observations

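Among the purine genes with too few UMIs to be counted between Xdh-positive and Xdh-negative nuclei, Ampd3, which encodes an AMP deaminase that feeds inosine monophosphate into the pathway ending at Xdh, was picked out after its values were seen. It had 9 UMIs in the 53 Xdh-positive and 4 in the 106 depth-matched Xdh-negative MIP microglia-like nuclei, 56.3 against 12.6 CPM, a log2 ratio of 2.16 (0.32 to 4.31), and 2.23 (0.10 to 4.81) without the nucleus with the most UMIs in each set. Of the 18 MIP microglia-like nuclei with an Ampd3 UMI, 8 also had Xdh, beside 53 of all 354 nuclei of the class. Because Ampd3 was picked for its difference between these nuclei, this overlap restates the choice and adds no support. Between the libraries the microglial level of Ampd3 was 19.6 CPM in MIP and 24.96 CPM in control nuclei, a log2 ratio of -0.34 (-1.29 to 0.57).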
